A study of Homo sapiens with 18 samples.

Results

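10 genes for chemokines and cytokines that endothelial cells make under NF-kB, namely CCL2, CCL20, CXCL1, CXCL2, CXCL3, CXCL6, CXCL8, CX3CL1, IL6 and CSF2, were looked up by symbol in the deposited array values. 9 of the 10 had a probe set in the platform annotation, out of 18417 genes in all, and each of the 9 had 1 probe set. CSF2, which encodes the growth factor GM-CSF, had none there and was skipped. The cells were HUVEC, endothelial cells of the human umbilical vein, which the labels call a normal cell line. Their RNA was hybridised to 18 Affymetrix arrays of the whole-transcript type, and each of 6 groups had 3 arrays. 2 groups were controls: untreated cells, for which the labels give no time, and cells kept for 3 days with beads that carry only IgG. The other groups received beads for 3 days with extracellular vesicles (EVs, small membrane particles that cells release), captured by an antibody to CD63 or to MHC class 1. The EVs came from Jurkat, a human leukaemic T cell line, or from JinB8, a mutant clone of Jurkat that lacks the surface protein CD47. This gave Jurkat CD63+, Jurkat MHC1+, JinB8 CD63+ and JinB8 MHC1+ EVs. On 5 of the 6 JinB8 arrays the free text carries another number after JINB, and the group follows the bracketed name, which reads JINB8. The concentrated T cell medium was pooled before the EVs were purified, so the arrays of an EV group may share 1 preparation. Nothing in the labels says that the arrays of a group are separate cultures, and a p-value here reflects the spread among the arrays alone, part of which may be technical.

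NF-kB is a family of transcription factors held in the cytoplasm by IkB proteins. Receptors for IL-1, TNF or microbial products activate the IkB kinase complex, IkB is degraded, and the freed dimers bind kappaB sites in promoters. In endothelium this switches on chemokines that bring leukocytes to the vessel wall, and much of the control lies in the rapid decay of their AU-rich messages. CXCL1, CXCL2, CXCL3, CXCL6 and CXCL8 (interleukin 8) draw neutrophils, CCL2 and CX3CL1 draw monocytes among other cells, and CCL20 draws cells with the receptor CCR6. IL6 encodes a cytokine that acts on many tissues, the liver's acute-phase response included.

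The genes were grouped through NF-kB, so the start of each promoter is shown for the kappaB sequence it holds. RefSeq promoters (GRCh38.p14) were found for 8 of the 10 genes, and none for CCL2 and CX3CL1. The 110 bases before each start are printed 5′ to 3′ on the gene's strand, with matches to a kappaB motif in capitals.
CXCL1, chr4:73869283-73869392, plus strand: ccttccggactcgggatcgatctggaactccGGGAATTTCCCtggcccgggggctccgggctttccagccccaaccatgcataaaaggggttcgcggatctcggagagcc
CXCL2, chr4:74099196-74099305, minus strand: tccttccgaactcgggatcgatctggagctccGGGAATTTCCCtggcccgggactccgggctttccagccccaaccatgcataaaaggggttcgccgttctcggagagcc
CXCL3, chr4:74038690-74038799, minus strand: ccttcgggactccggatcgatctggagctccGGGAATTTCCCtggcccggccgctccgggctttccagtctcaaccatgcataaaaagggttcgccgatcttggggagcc
CXCL6, chr4:73836568-73836677, plus strand: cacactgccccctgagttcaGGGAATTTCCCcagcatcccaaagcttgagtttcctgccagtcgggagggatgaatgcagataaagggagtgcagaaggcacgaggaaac
CXCL8, chr4:73740459-73740568, plus strand: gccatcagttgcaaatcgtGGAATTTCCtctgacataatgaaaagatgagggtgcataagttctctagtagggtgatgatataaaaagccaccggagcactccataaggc
CCL20, chr2:227813732-227813841, plus strand: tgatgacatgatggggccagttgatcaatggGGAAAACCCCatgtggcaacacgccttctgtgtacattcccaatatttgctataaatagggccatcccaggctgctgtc
IL6, chr7:22727090-22727199, plus strand: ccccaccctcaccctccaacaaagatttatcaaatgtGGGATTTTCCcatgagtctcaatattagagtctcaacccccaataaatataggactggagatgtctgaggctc
CSF2, chr5:132073679-132073788, plus strand: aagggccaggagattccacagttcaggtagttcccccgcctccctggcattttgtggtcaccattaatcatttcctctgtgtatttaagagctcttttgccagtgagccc

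The 9-letter word GGAATTTCC was searched on both strands in the 250 bases before the start. It was found in CXCL1, CXCL2, CXCL3, CXCL6 and CXCL8, and in 117 of all 27303 promoters (0.429%). It lay 78 to 70 bases before the start in CXCL1 and CXCL3, 77 to 69 in CXCL2, 89 to 81 in CXCL6 and 91 to 83 in CXCL8. The wider kappaB consensus, which overlaps this word in CXCL1, CXCL2, CXCL3 and CXCL6, was also found in CCL20, 79 to 70 bases before the start on the opposite strand, and in IL6, 73 to 64 bases before it. Of all promoters, 9.57% held the consensus. The AP-1 word TGANTCA, held by 6.6% of promoters, was found among the 8 only in CXCL8, 137 to 131 bases before the start and outside the stretch shown. None of these motifs was found in the CSF2 window. Only exact matches were counted, so a kappaB site that departs from the patterns would be missed. Position by position without gaps, CXCL1 shared 99 of the 110 bases with CXCL3 and 78 with CXCL2, and CXCL2 shared 71 with CXCL3. These matches describe letters and were not measured as binding. The CXC genes lie together on chromosome 4 of GRCh38.p14: CXCL8 at chr4:73740569-73743716, CXCL6 at chr4:73836678-73838760, CXCL1 at chr4:73869393-73871308, CXCL3 at chr4:74036589-74038689 and CXCL2 at chr4:74097040-74099195. CCL20 lies at chr2:227813842-227817556, IL6 at chr7:22727200-22731998, CX3CL1 at chr16:57372490-57385044, CCL2 at chr17:34255285-34257203 and CSF2 at chr5:132073789-132076170.

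2 control arrays stood apart from the rest, replicate 3 of the untreated cells and replicate 3 of the IgG beads, and the differences for the 9 genes were computed with all 18 arrays and with the 16 others. Where only the 16 are named, a comparison between EV groups has the same difference in the 18, with a larger SE. Over all probe sets their median correlation with the other arrays was 0.636 and 0.649, against 0.948 to 0.992 in the 16 others. Their 12 endothelial marker genes averaged 5.93 and 6.74 on the log2 scale, against 9.01 to 9.36. The marker lists of T cells (11 of 11 genes measured), monocytes (8 of 9), fibroblasts (9 of 9) and epithelium (7 of 7) were higher in these 2 arrays, at 4.97 to 6.12, than in the 16 others, at 3.93 to 5.58. The SD over all probe sets was 1.565 and 1.566 in these 2 arrays, against 2.01 to 2.25 in the 16 others. Their medians over all probe sets were 5.23 and 5.31, against 4.86 to 5.13. In these 2 arrays the T cell markers averaged 5.32 to 5.39 and the monocyte markers 4.97 to 5.05, near those medians. What sets these 2 arrays apart was not tested, and the marker averages do not show that other cell types were present. Among the 16, replicate 1 of the Jurkat MHC1+ EVs had the lowest SD over all probe sets, 2.01, and the lowest median correlation, 0.948.

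In the 2 discordant control arrays CCL2, CCL20, CXCL1, CXCL2, CXCL8 and IL6 were lower than in the other control arrays, and CXCL3 and CX3CL1 were higher. The sign of the difference between EVs and beads turned for 6 genes when these arrays were left out. With 18 arrays the median difference of the 9 genes between all EVs and beads was 0.67 on the log2 scale, with 6 of 9 above 0, against a median of -0.06 over all genes. With 16 arrays it was -0.14, with 2 of 9 above 0, against 0.01 over all genes. In bulk RNA, fewer cells that express a gene and less RNA per cell cannot be told apart.

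**Figure D1:**
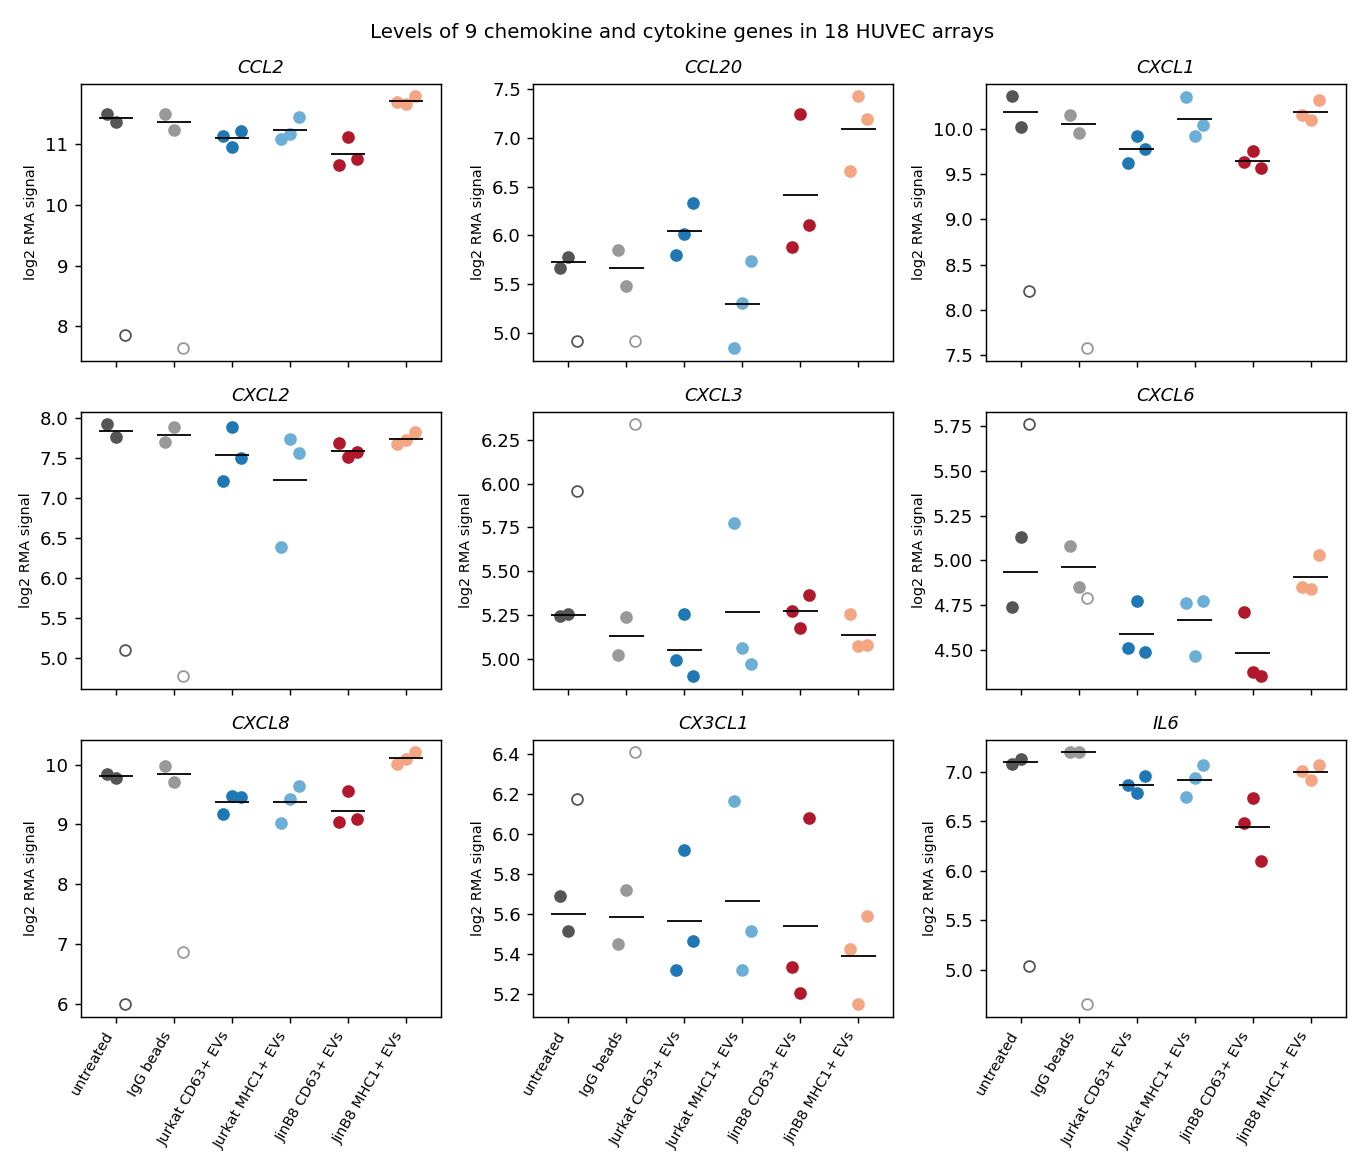
Level of each of the 9 genes (vertical axis, log2 RMA signal) on the 18 arrays, by group along the horizontal axis. Filled points are arrays, open points are replicate 3 of both control groups, and the line is the mean of the filled points; CCL2, CXCL1, CXCL2, CXCL8 and IL6 have their open points far below all filled ones.

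CXCL8, the main neutrophil chemokine of endothelium, was highest with JinB8 MHC1+ EVs. There it stood at 10.01, 10.10 and 10.21 (log2 level), against 9.04, 9.56 and 9.08 with JinB8 CD63+ EVs. It was 9.03, 9.43 and 9.65 with Jurkat MHC1+ EVs and 9.18, 9.47 and 9.46 with Jurkat CD63+ EVs. The controls had 9.85, 9.78 and 5.998 when untreated and 9.98, 9.71 and 6.86 with beads. The 3 arrays with JinB8 MHC1+ EVs thus lay above every other array, and the 9 arrays of the other EV groups lay below the 4 concordant controls. In the 16 arrays the order of the means was JinB8 CD63+ (9.23 ± 0.29, SD, n = 3), Jurkat CD63+ (9.37 ± 0.16), Jurkat MHC1+ (9.37 ± 0.31), untreated (9.82 ± 0.05, n = 2), beads (9.84 ± 0.19, n = 2) and JinB8 MHC1+ (10.11 ± 0.10, n = 3). The lowest 3 groups overlapped each other, as did the controls.

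The difference between CD63 and MHC1 capture of JinB8 EVs was -0.88 ± 0.17 (SE) for CXCL8 in the 16 arrays, with a limma adjusted p of 0.057. The adjustment ran over all 18417 genes, and a gene is called here where the adjusted p is under 0.05, so CXCL8 was not called. JinB8 MHC1+ EVs exceeded Jurkat MHC1+ EVs by 0.74 ± 0.17 (adjusted p = 0.070, limma). With 18 arrays the same differences had an SE of 0.87 and adjusted p-values of 1.00 and 0.93. Against beads, CXCL8 differed by -0.47 ± 0.19 with either kind of Jurkat EVs, by -0.61 ± 0.19 with JinB8 CD63+ EVs and by 0.27 ± 0.19 with JinB8 MHC1+ EVs. None of these passed (adjusted p = 0.47 to 1.00, limma).

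CCL2, which encodes the monocyte chemokine MCP-1, was likewise highest with JinB8 MHC1+ EVs. Its log2 levels were 11.70, 11.66 and 11.79 with JinB8 MHC1+ EVs and 10.65, 11.11 and 10.76 with JinB8 CD63+ EVs. Jurkat MHC1+ EVs gave 11.09, 11.16 and 11.44, and Jurkat CD63+ EVs gave 11.14, 10.96 and 11.21. Untreated cells had 11.50, 11.36 and 7.85, and beads 11.49, 11.24 and 7.64. All 3 arrays with JinB8 MHC1+ EVs were above all others, and all 6 arrays with CD63+ EVs were below the 4 concordant controls. The means in the 16 arrays ran from JinB8 CD63+ (10.84 ± 0.24) through Jurkat CD63+ (11.10 ± 0.13), Jurkat MHC1+ (11.23 ± 0.19), beads (11.37 ± 0.18, n = 2) and untreated (11.43 ± 0.10, n = 2) to JinB8 MHC1+ (11.72 ± 0.06). Each neighbouring pair in this order overlapped except the last. The SDs of both controls over all 3 arrays were 2.07 and 2.16, and these entered the spread of every comparison with 18 arrays.

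CCL2 was called lower with CD63+ than with MHC1+ EVs of JinB8 in the 16 arrays, with a log2 difference of -0.88 ± 0.14 (95% interval -1.18 to -0.57, adjusted p = 0.019, limma), or 1.84-fold. In this comparison 0.185% of all genes were called. With 18 arrays the difference was the same, its SE 0.92 and its adjusted p 1.00. Between the CD63+ and MHC1+ EVs of Jurkat CCL2 differed by -0.13 ± 0.14 (interval -0.43 to 0.17, adjusted p = 0.61). The test of the difference between these 2 differences, the interaction of cell line and capture, gave -0.75 ± 0.20 (adjusted p = 0.14, limma) and was not called. The call for JinB8 EVs was lost without replicate 1 or 3 of the JinB8 CD63+ EVs (adjusted p = 0.13 and 0.12) and without any 1 of the 3 JinB8 MHC1+ arrays (0.11 to 0.13), while the difference stayed between -1.01 and -0.78.

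The spread of an array over all probe sets moved with this difference, with SDs of 2.21 to 2.25 with JinB8 MHC1+ EVs against 2.05 to 2.19 with JinB8 CD63+ EVs. With the SD of each array as a covariate, a setting chosen after seeing the data, CCL2 differed by -0.66 ± 0.14 (adjusted p = 0.062, limma) and was not called. The T cell markers averaged 4.11 to 4.17 with JinB8 MHC1+ EVs and 4.14 to 4.44 with JinB8 CD63+ EVs. The monocyte markers averaged 3.93 to 3.99 and 3.98 to 4.31. On average 11 of 11 T cell and 7 of 8 monocyte markers were lower with JinB8 MHC1+ EVs. Fibroblast markers averaged 4.515 to 4.62 and 4.56 to 4.81, and epithelial markers 5.04 to 5.155 and 5.15 to 5.29. The median over all probe sets was 4.86 to 4.89 and 4.91 to 5.025, above the T cell and monocyte averages. What these marker shifts reflect was not tested. The endothelial markers averaged 9.16 to 9.23 and 9.12 to 9.22.

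CCL20, which encodes the ligand of CCR6, was highest with JinB8 MHC1+ EVs and lowest with Jurkat MHC1+ EVs. The log2 levels were 6.66, 7.43 and 7.20 with JinB8 MHC1+ EVs and 4.84, 5.31 and 5.74 with Jurkat MHC1+ EVs. They were 5.88, 7.25 and 6.11 with JinB8 CD63+ EVs and 5.80, 6.01 and 6.33 with Jurkat CD63+ EVs. Untreated cells had 5.66, 5.78 and 4.92, and beads 5.85, 5.48 and 4.92. The 3 JinB8 MHC1+ arrays lay above all control arrays and all Jurkat EV arrays, and replicate 2 of the JinB8 CD63+ EVs lay among them. In the order of the means of the 16 arrays, Jurkat MHC1+ (5.30 ± 0.45), beads (5.67 ± 0.26, n = 2), untreated (5.72 ± 0.08, n = 2), Jurkat CD63+ (6.05 ± 0.27), JinB8 CD63+ (6.42 ± 0.73) and JinB8 MHC1+ (7.10 ± 0.39), each neighbouring pair overlapped except untreated and Jurkat CD63+.

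CCL20 was called higher with JinB8 than with Jurkat MHC1+ EVs in the 16 arrays, by 1.80 ± 0.31 (interval 1.13 to 2.47, 3.48-fold, adjusted p = 0.019, limma), where 0.386% of all genes were called. On the Jurkat MHC1+ arrays CCL20 stood at 4.84, 5.31 and 5.74, where the medians over all probe sets were 5.13, 4.99 and 4.90. Whether its signal was above background there was not tested. With 18 arrays the SE of the difference was 0.38 and its adjusted p 0.25 (limma). With CD63 capture, JinB8 and Jurkat EVs differed by 0.37 ± 0.31 (interval -0.30 to 1.03, adjusted p = 0.87), and the interaction of cell line and capture, -1.43 ± 0.44, was not called (adjusted p = 0.14, limma). The call was lost without replicate 2 of the Jurkat MHC1+ EVs (adjusted p = 0.056) or replicate 2 or 3 of the JinB8 MHC1+ EVs (0.14 and 0.094). Without replicate 1 of the Jurkat MHC1+ EVs the difference was 1.57 (adjusted p = 0.0495, limma, among 58 called genes).

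The array SDs moved with this difference too, at 2.01 to 2.21 with Jurkat MHC1+ EVs against 2.21 to 2.25 with JinB8 MHC1+ EVs. With the array SD as a covariate the CCL20 difference was 1.14 ± 0.24 (adjusted p = 0.063) and was not called. The T cell markers averaged 4.17 to 4.66 with Jurkat MHC1+ EVs, and 1 of the 11 was higher with JinB8 MHC1+ EVs. The monocyte markers averaged 3.98 to 4.38 there, and 0 of 8 were higher with JinB8 MHC1+ EVs. Both averages lay below the median over all probe sets, which was 4.90 to 5.13 with Jurkat MHC1+ EVs. Against beads CCL20 differed by 1.43 ± 0.35 with JinB8 MHC1+ EVs (adjusted p = 0.20, limma) in the 16 arrays and by 1.68 ± 0.38 (adjusted p = 0.32) in the 18. With the array SD as a covariate it was called higher than beads with JinB8 MHC1+ EVs (1.22 ± 0.22, adjusted p = 0.0076) and with JinB8 CD63+ EVs (1.21 ± 0.24, adjusted p = 0.025), where 1.08% and 0.434% of all genes were called. In that setting it was also called higher with all EVs than in all controls (0.66 ± 0.14, adjusted p = 0.025, limma), among 0.999% of all genes. The covariate was chosen after seeing the data. Without it, all EVs differed from all controls by 0.52 ± 0.22 in the 16 arrays, which was not called. The EV groups were not alike there. CCL20 differed from beads by -0.37 ± 0.35 with Jurkat MHC1+, 0.38 ± 0.35 with Jurkat CD63+ and 0.75 ± 0.35 with JinB8 CD63+ EVs, none of them called.

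**Figure D2:**
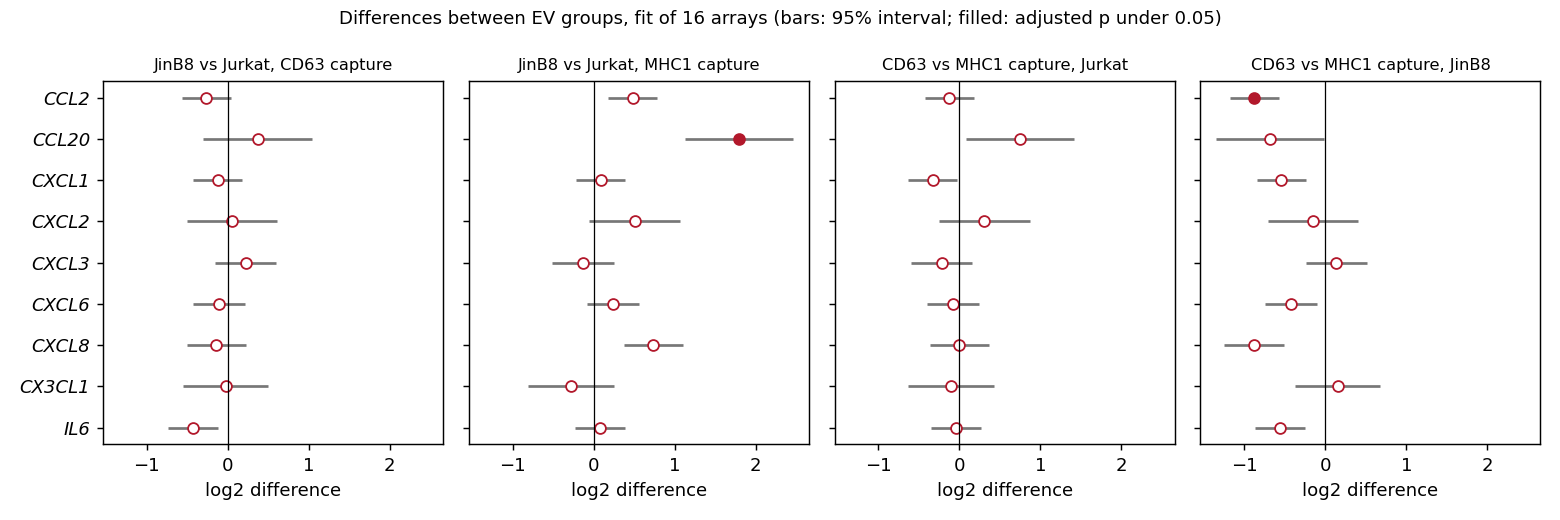
Difference between EV groups in the 16 arrays for each of the 9 genes (horizontal axis, log2 difference, with its 95% interval), 1 panel per comparison. Filled points passed an adjusted p under 0.05: CCL20 for JinB8 against Jurkat with MHC1 capture (1.80) and CCL2 for CD63 against MHC1 capture of JinB8 (-0.88).

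IL6 was lower in all 12 EV arrays than in the 4 concordant controls. Its log2 levels were 7.08, 7.13 and 5.04 in untreated cells and 7.20, 7.20 and 4.65 with beads. Jurkat EVs gave 6.87, 6.78 and 6.95 with CD63 capture and 6.74, 6.93 and 7.07 with MHC1 capture. JinB8 EVs gave 6.48, 6.74 and 6.10 with CD63 capture and 7.01, 6.92 and 7.06 with MHC1 capture. No other of the 9 genes had this separation, and 0.239% of all genes had it in this direction. Among EV arrays the lowest were those with JinB8 CD63+ EVs, with a mean of 6.44 ± 0.32 (SD, n = 3), although their highest array and the lowest Jurkat MHC1+ array were both at 6.74. The other means were 6.87 ± 0.08 with Jurkat CD63+, 6.91 ± 0.16 with Jurkat MHC1+ and 6.998 ± 0.074 with JinB8 MHC1+ EVs, 3 groups that overlapped. Untreated cells averaged 7.10 ± 0.03 and beads 7.20 in the 16 arrays (n = 2 each).

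JinB8 CD63+ EVs differed from beads by -0.76 ± 0.16 for IL6 in the 16 arrays (interval -1.10 to -0.42, adjusted p = 0.15, limma) and by 0.09 ± 0.60 in the 18 (adjusted p = 0.96). Without replicate 1 of the Jurkat MHC1+ EVs as well, that is with 15 arrays, the first difference was called (-0.76, adjusted p = 0.044, among 54 called genes). That array is in neither group compared, so the difference stayed and the shared estimate of the spread changed. All EVs differed from all controls by -0.35 ± 0.10 in the 16 arrays (adjusted p = 0.42) and by 0.42 ± 0.37 in the 18 (adjusted p = 0.36), so that the sign turned. CD63 and MHC1 capture of JinB8 EVs differed by -0.56 ± 0.14 in the 16 arrays (adjusted p = 0.16). With the array SD as a covariate, chosen after seeing the data, the test of any difference among the 6 groups called IL6 (adjusted p = 0.043, limma) and 1.69% of all genes. The difference from beads was then -0.58 ± 0.12 (adjusted p = 0.0501, limma).

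CXCL1, another neutrophil chemokine, stood at 10.15, 10.10 and 10.32 with JinB8 MHC1+ EVs and at 9.63, 9.75 and 9.56 with JinB8 CD63+ EVs. Jurkat EVs gave 10.35, 9.92 and 10.04 with MHC1 capture and 9.62, 9.92 and 9.78 with CD63 capture. Untreated cells had 10.36, 10.02 and 8.20, and beads 10.15, 9.95 and 7.58. All 6 arrays with CD63+ EVs lay below the 4 concordant controls, and the arrays with MHC1+ EVs overlapped them. In the 16 arrays CD63 and MHC1 capture differed by -0.54 ± 0.14 for JinB8 EVs (adjusted p = 0.16, limma) and by -0.33 ± 0.14 for Jurkat EVs (adjusted p = 0.41), and neither passed. In the 18 the SE of both was 0.58 (adjusted p = 1.00 each).

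CXCL6, which like CXCL8 binds both neutrophil receptors CXCR1 and CXCR2, was 4.71, 4.38 and 4.36 with JinB8 CD63+ EVs, below the 4.74, 5.13, 5.08 and 4.85 of the concordant controls. With JinB8 MHC1+ EVs it was 4.85, 4.84 and 5.03, within the controls. Jurkat EVs gave 4.51, 4.77 and 4.49 with CD63 capture and 4.76, 4.47 and 4.77 with MHC1 capture. The medians over all probe sets were 4.86 to 5.13 in the 16 arrays, so CXCL6 lay near or below them. Whether its signal was above background was not tested. Over all EVs CXCL6 differed from beads by -0.30 ± 0.14 (adjusted p = 1.00, limma) in the 16 arrays and by -0.24 ± 0.18 (adjusted p = 0.52) in the 18.

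CXCL2 and CXCL3 encode close relatives of CXCL1, and the 4 EV groups overlapped each other for both. CXCL2 ranged from 7.21 to 7.88 in 11 of the 12 EV arrays and the concordant controls from 7.69 to 7.92. Replicate 1 of the Jurkat MHC1+ EVs was at 6.39. CXCL3 ranged from 4.90 to 5.78 in the 16 arrays, again with that replicate at the far end, and was 5.96 and 6.34 in the discordant controls. CX3CL1, the membrane-bound chemokine fractalkine, ranged from 5.15 to 6.17 in the 16 arrays, with every pair of groups overlapping. The intervals of the difference between JinB8 CD63+ and MHC1+ EVs were -0.71 to 0.41 for CXCL2, -0.24 to 0.51 for CXCL3 and -0.38 to 0.68 for CX3CL1. CXCL1, CXCL2 and CXCL3 have similar transcripts, and whether their probe sets share signal was not tested.

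**Figure D3:**
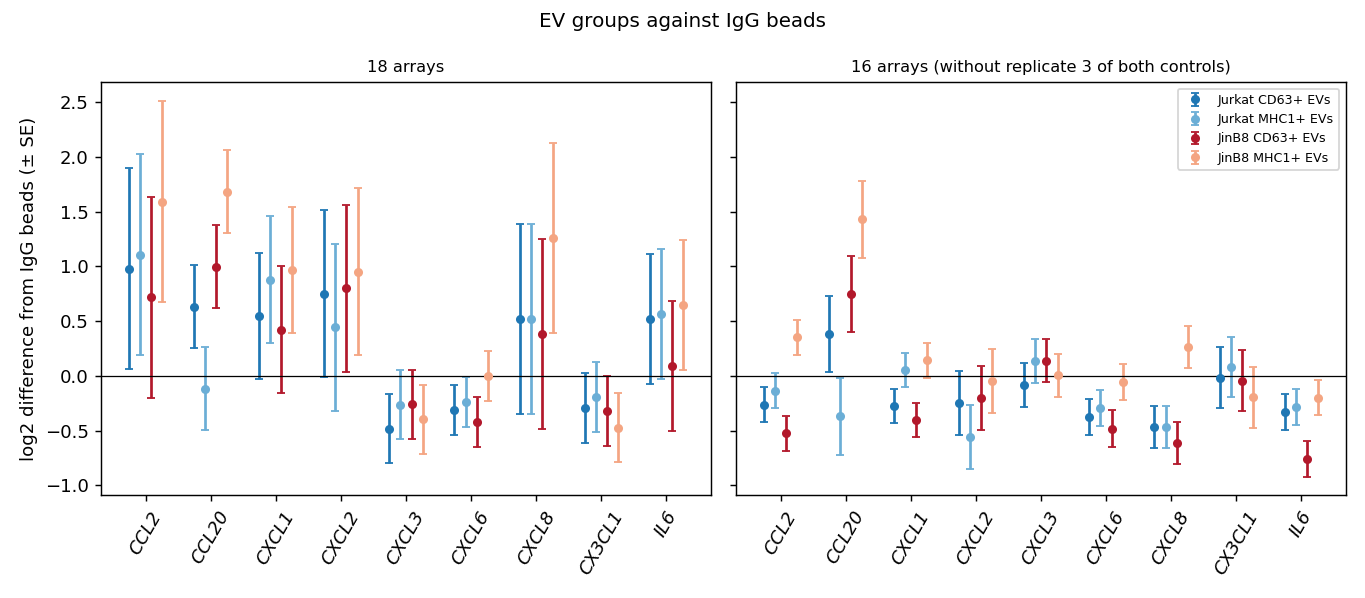
Difference of each EV group from the IgG beads (vertical axis, log2 difference ± SE) for the 9 genes, with 18 arrays on the left and 16 on the right. For CCL2, CXCL1, CXCL2, CXCL8 and IL6 the mean difference over all EVs was above 0 on the left and below 0 on the right, and CCL20 with JinB8 MHC1+ EVs was above 0 in both (1.68 and 1.43).

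By limma, with 18 arrays, 0 of the 9 genes were called in any of 12 comparisons or in the test of any difference among the 6 groups. The shares of all genes called there were 0.00543% for all EVs, Jurkat CD63+ and JinB8 CD63+ EVs against beads, 0.0434% for JinB8 MHC1+ EVs against beads and 0% for Jurkat MHC1+ EVs against beads and for beads against untreated. They were 0.00543% for all EVs against all controls, 0.0326% for JinB8 against Jurkat with MHC1 capture, 0.00543% for CD63 against MHC1 capture of JinB8 and 0.0109% for any difference. JinB8 against Jurkat with CD63 capture, CD63 against MHC1 capture of Jurkat and the interaction called 0%. At an unadjusted p under 0.05, the 18 arrays gave 0 to 2 of the 9 genes per comparison, against 47 to 1904 of the 18417 genes.

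With 16 arrays 1 of the 9 genes, CCL20, was called for JinB8 against Jurkat with MHC1 capture, where 0.386% of all genes were called. 1 of the 9, CCL2, was called for CD63 against MHC1 capture of JinB8, where 0.185% were. In the other comparisons 0 of the 9 were called. The shares of all genes there were 0.0434% for all EVs against beads, 0.00543% for Jurkat CD63+, 0% for Jurkat MHC1+, 0.0923% for JinB8 CD63+ and 0.212% for JinB8 MHC1+ EVs against beads, 0% for beads against untreated and 0.125% for all EVs against all controls. They were 0% for JinB8 against Jurkat with CD63 capture, 0.00543% for CD63 against MHC1 capture of Jurkat, 0.0163% for the interaction and 0.233% for any difference. At an unadjusted p under 0.05, 6 of the 9 passed for JinB8 CD63+ EVs against beads, 6 for CD63 against MHC1 capture of JinB8 and 4 for the interaction, against 1234, 3051 and 5290 of the 18417 genes. For JinB8 against Jurkat with MHC1 capture 3 passed, against 5443, and for any difference 6, against 1486. The remaining comparisons gave 0 to 4, against 188 to 2021. The median difference of the 9 genes was -0.54 for CD63 against MHC1 capture of JinB8, against 0.03 over all genes, and 0.24 for JinB8 against Jurkat with MHC1 capture, against -0.06.

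Single arrays moved these counts. Without replicate 2 of the JinB8 CD63+ EVs, 4 of the 9 genes (CCL2, CCL20, CXCL8 and IL6) were called for CD63 against MHC1 capture of JinB8 and for the interaction, among 714 and 1786 called genes in all. CCL20 and CXCL8 were then called for JinB8 against Jurkat with MHC1 capture, among 253. CCL20 was also called for JinB8 MHC1+ EVs against beads, among 47, and for any difference among the groups, among 43. Without replicate 3 of the Jurkat MHC1+ EVs, CCL2, CCL20 and CXCL8 were called for JinB8 against Jurkat with MHC1 capture and for the interaction, among 5677 and 4682 called genes, and CCL2 and CXCL8 for CD63 against MHC1 capture of JinB8, among 62. Without replicate 1 of the Jurkat MHC1+ EVs, CCL2, CXCL1, CXCL8 and IL6 were called for CD63 against MHC1 capture of JinB8, among 355, and CCL2 and CXCL8 for any difference among the groups, among 122.

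Separation without overlap was counted in the same way, as a description. CXCL6 is counted here although its levels lay near or below the array medians over all probe sets. All JinB8 MHC1+ arrays lay above all JinB8 CD63+ arrays for 5 of the 9 genes, CCL2, CXCL1, CXCL6, CXCL8 and IL6, and for 12.8% of all genes. They lay above all Jurkat MHC1+ arrays for 4, CCL2, CCL20, CXCL6 and CXCL8, against 15.5% of all genes, and above the 4 concordant controls for 3, CCL2, CCL20 and CXCL8, against 8.36%. All JinB8 CD63+ arrays lay below the 4 concordant controls for 6 of the 9, CCL2, CXCL1, CXCL2, CXCL6, CXCL8 and IL6, against 4.52% of all genes. All Jurkat CD63+ arrays did so for 4, CCL2, CXCL1, CXCL8 and IL6 (2.6% of all genes), and all Jurkat MHC1+ arrays for 2, CXCL8 and IL6 (2.38%).

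Across the 16 arrays some pairs of the genes varied together and others in opposite directions, and these correlations share the arrays and their normalization. CCL2 and CXCL8 had Pearson's r = 0.91, and 0.77 for the deviations from the group means. CXCL8 and IL6 had 0.71 and 0.67, and CCL2 and IL6 0.75 and 0.65. CCL2 and CXCL1 had 0.73 over the arrays but 0.14 within groups. CCL20 had lower values over the arrays than within groups, at 0.54 and 0.88 with CXCL8, 0.40 and 0.78 with CCL2, and -0.03 and 0.63 with IL6. CXCL3 and CX3CL1 went together, at 0.69 and 0.75. Over the arrays and within groups, CXCL3 had -0.53 and -0.62 with CXCL2, -0.40 and -0.69 with CXCL8, and -0.39 and -0.62 with CCL20. With IL6 it had -0.39 and -0.58 and with CCL2 -0.34 and -0.63, while CXCL1 gave 0.24 and 0.46 and CXCL6 0.05 and 0.20. CX3CL1 had -0.50 and -0.49 with CCL20, -0.36 and -0.43 with CXCL8, and -0.33 and -0.30 with CXCL2. With IL6 it had -0.32 and -0.72 and with CCL2 -0.31 and -0.43, while CXCL1 gave 0.19 and 0.46 and CXCL6 0.02 and 0.14.

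**Figure D4:**
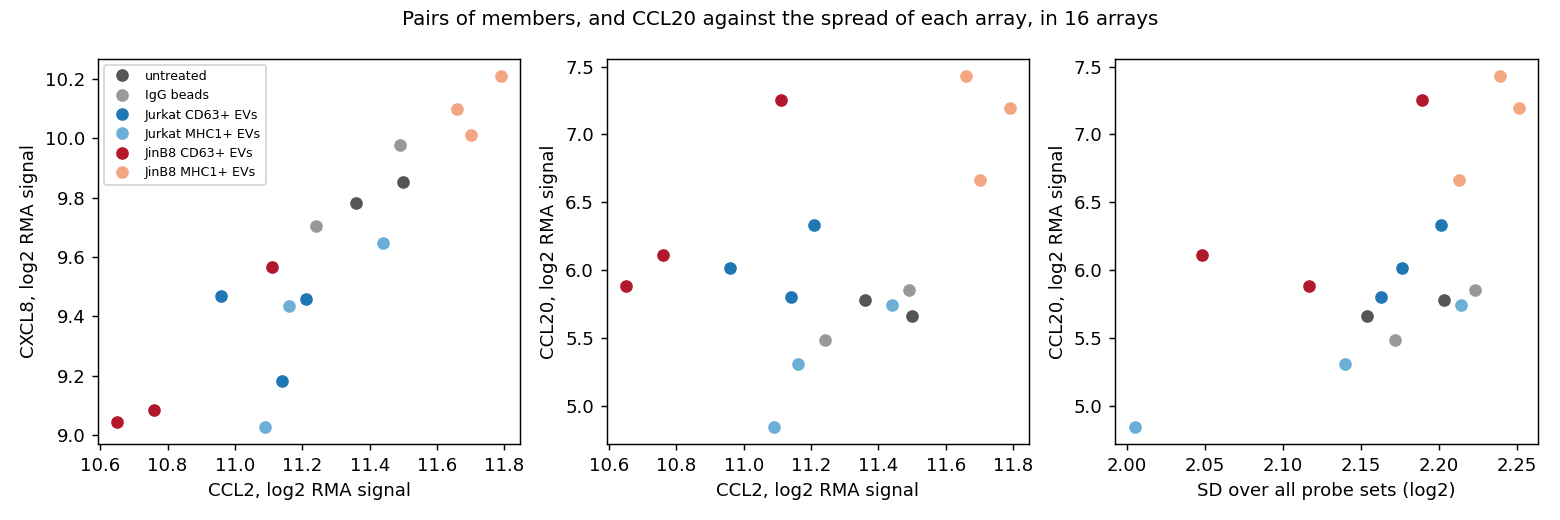
Log2 RMA signal of CXCL8 against CCL2, of CCL20 against CCL2, and of CCL20 against the SD over all probe sets of the same array, in the 16 arrays, coloured by group. CXCL8 follows CCL2 (r = 0.91) while CCL20 does so less (r = 0.40), and the JinB8 MHC1+ arrays have the highest CCL2 (11.66 to 11.79) and SDs of 2.21 to 2.25.

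The 2 genes most like each of the 9 over the 16 arrays, by Pearson's r, were HBEGF (0.95) and IFI6 (0.94) for CCL2, IFITM1 (0.95) and IFI35 (0.92) for CXCL8, and EDN1 (0.94) and MCTP1 (0.92) for IL6. HBEGF encodes a growth factor of the EGF family, IFI6, IFITM1 and IFI35 are interferon-induced, and EDN1 encodes the vasoconstrictor endothelin. CCL20 was most like TXNIP and RPL23 (0.94 each), CXCL1 like NEDD8P1 (0.91) and SMPD2 (0.90), and CXCL2 like DNAJA1 (0.96) and RCN2 (0.92). CXCL3 was most like ACSBG1 (0.95) and ALDH16A1 (0.94), CX3CL1 like WIZ (0.90) and FES (0.89), and CXCL6 like PA2G4 (0.79) and DNAJB5 (0.77).

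The rest of the pathway was followed in 9 gene lists, in which 0 genes were called by limma in any comparison with 18 or 16 arrays. Values are for the 16 arrays unless another number is given. Of the receptors and adaptors upstream of NF-kB, 13 of 16 were measured, and 11 of these had a positive difference between JinB8 and Jurkat MHC1+ EVs, with a median of 0.39. With CD63 capture 2 of the 13 had a positive difference between JinB8 and Jurkat EVs (median -0.10), and between all EVs and beads 4 of 13 did (median -0.08) in the 16 arrays and 12 of 13 (median 0.50) in the 18. Without replicate 1 of the Jurkat MHC1+ EVs the first median was 0.14, with 10 of 13 positive. Among them TLR2, a receptor for bacterial lipoproteins, differed by 0.70 ± 0.25 (adjusted p = 0.11, limma) and IL1RAP, the IL-1 receptor accessory protein, by 0.62 ± 0.21 (adjusted p = 0.10). Without that array TLR2 differed by 0.36 ± 0.18 and IL1RAP by 0.45 ± 0.20 (adjusted p = 0.44 and 0.39). The 9 kinases and NF-kB subunits had a median of 0.03 in that comparison. There MAP3K14, the kinase of the non-canonical pathway, differed by -0.08 ± 0.16, and IKBKB, a catalytic subunit of the IkB kinase complex, by 0.05 ± 0.12. Without that array MAP3K14 differed by 0.10 ± 0.14. The 11 measured feedback inhibitors had a median of 0.25, and 0.14 in the 15 arrays. TNIP3, a partner of the inhibitor A20, differed by 0.74 ± 0.23 (adjusted p = 0.098, limma), and by 0.65 ± 0.25 (adjusted p = 0.32, limma) in the 15. It averaged 4.54 with Jurkat and 5.29 with JinB8 MHC1+ EVs, near the array medians over all probe sets. ZC3H12A, a ribonuclease that cleaves IL6 mRNA, differed by -0.18 ± 0.14 (-0.03 ± 0.12 in the 15).

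Of the 14 other NF-kB targets of endothelium, 4 had positive differences between all EVs and beads in the 16 arrays, with a median of -0.06. VCAM1, the adhesion molecule that binds lymphocytes and monocytes, averaged 4.35 ± 0.07 and 4.26 ± 0.08 with Jurkat CD63+ and MHC1+ EVs and 4.27 ± 0.06 and 4.49 ± 0.14 with the JinB8 EVs. It averaged 4.89 ± 0.05 with beads and 4.79 ± 0.37 untreated (n = 2 each). The medians over all probe sets were 4.86 to 5.13 in the 16 arrays, and whether VCAM1 was above background was not tested. VCAM1 differed between all EVs and beads by -0.55 ± 0.12 (adjusted p = 0.33, limma), and by -0.55 ± 0.14 in the 18 arrays (adjusted p = 0.52). IRF1, a transcription factor of the interferon response, differed by -0.08 ± 0.19, and by -0.33 ± 0.21 in the 18. Of the 26 measured other chemokines and cytokines, 8 had a positive difference between CD63+ and MHC1+ EVs of JinB8 (median -0.15). There CCL5, a T cell and monocyte chemokine, differed by -0.59 ± 0.16 (adjusted p = 0.18), and CSF3, which encodes the granulocyte growth factor G-CSF, by 0.11 ± 0.12.

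For CD63 against MHC1 capture of JinB8 the list medians were -0.23 for the receptors and adaptors upstream, -0.15 for the kinases and subunits, -0.06 for the feedback inhibitors and -0.20 for the other targets. They were 0.12 for 15 receptors and decoys, 0.09 for 11 AP-1 and C/EBP partners, 0.03 for 9 decay factors of AU-rich messages and 0.01 for 8 genes of the IL-6 response. CCR2, the receptor for CCL2, differed by 0.22 ± 0.17, and ADAM17, the protease that sheds CX3CL1 and the IL-6 receptor, by -0.22 ± 0.25. FOSL1 differed by 0.26 ± 0.20 and JUND by 0.20 ± 0.16, both subunits of AP-1. ZFP36L2, which binds AU-rich elements, differed by 0.43 ± 0.17 (adjusted p = 0.26, limma), and PARN, a deadenylase, by -0.27 ± 0.20. BCL3, an atypical IkB protein listed for its response to IL-6, differed by 0.56 ± 0.18 (adjusted p = 0.23), and JAK2, a kinase of cytokine receptors, by -0.08 ± 0.20.

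With 15 arrays, without replicate 1 of the Jurkat MHC1+ EVs and both discordant controls, some genes of 2 lists were called, and they are named here after their values were seen. For CD63 against MHC1 capture of JinB8, where 355 of the 18417 genes were called, 2 of the 14 other targets were lower. These were PTGS2, the inducible cyclooxygenase (-0.92 ± 0.16, adjusted p = 0.014, limma), and SOD2, the mitochondrial superoxide dismutase (-0.67 ± 0.16, adjusted p = 0.045). Of the 26 other chemokines and cytokines 4 were lower there. CXCL10, an interferon-induced T cell chemokine, differed by -1.59 ± 0.37 (adjusted p = 0.044) and IL1A, which encodes interleukin 1 alpha, by -0.72 ± 0.15 (adjusted p = 0.032). The TNF family ligands TNFSF18 and TNFSF4 differed by -1.32 ± 0.18 (adjusted p = 0.0016) and -0.97 ± 0.23 (adjusted p = 0.045). TNFSF18 was also lower with JinB8 CD63+ EVs than with beads (-1.23 ± 0.20, adjusted p = 0.011, among 54 called genes), and VCAM1 lower with all EVs than in all controls (-0.51 ± 0.09, adjusted p = 0.019, among 62). The VCAM1 levels lay near or below the array medians over all probe sets.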

How the data were processed

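Gene expression was measured on 18 arrays of HUVEC RNA. The authors used RMA in Affymetrix Expression Console (version not given in the sources used here), per the submitters' processing notes. The deposited values were treated as log2 RMA signal, since the table states no scale and their range fits it. RMA includes quantile normalization of the arrays, which can damp or spread differences when arrays differ in quality. The labels name Trizol and RNeasy for the RNA and the series design a miRNA kit. The small number of arrays limits how precise each value is.

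Of 33297 probe sets, 12083 without a gene and 1754 with several symbols were left out. Among the 19460 that name a single gene, the brightest by mean was kept for each gene, leaving 18417 genes (769 with more than 1 probe set). No filter on level was used. A model with 1 mean per group was fitted with limma 3.58.1 in R 4.3.3 (lmFit, eBayes, two-sided), once to all 18 arrays and once to 16 without replicate 3 of both control groups. Benjamini-Hochberg adjustment ran over all genes of a comparison, with calls at adjusted values under 0.05. The script was tested on simulated data. Replicates carry no numbers in the labels and were numbered in accession order. Tables were made with pandas 2.3.3 and numpy 2.4.6 in Python 3.11.15, and plots with matplotlib 3.10.9. Other settings were 15 arrays, array weights, limma's trend and robust options, centring on array medians, a repeated quantile normalization, all probe sets, untreated cells as the control, a filter on the lower 50% of genes, only the groups compared, each array left out and, chosen after seeing the data, the SD of each array as a covariate and each of the 16 arrays left out. The members and lists were chosen with earlier results of these data known. From each pathway list the 2 genes with the smallest p for any difference among the groups in the 18 arrays were named, and the 2 genes most like each member were named by Pearson's r over the 16 arrays.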

Additional observations from a re-analysis of the deposited data

How the results depend on the processing

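With 18 arrays, 344 counts of called genes under other settings stayed at the 0 of 9 first reported, and 24 moved. Without both discordant controls 1 gene was called for JinB8 against Jurkat with MHC1 capture, among 71 of the 18417 genes. For CD63 against MHC1 capture of JinB8 1 was called, among 34. With 15 arrays the counts were 1 for JinB8 CD63+ EVs against beads, 1 for JinB8 against Jurkat with MHC1 capture, 4 for CD63 against MHC1 capture of JinB8 and 2 for any difference, among 54, 58, 355 and 122 called genes. With the array SD as a covariate in the 16 arrays, a setting chosen after seeing the data, they were 1 for JinB8 CD63+ and 1 for JinB8 MHC1+ EVs against beads, 1 for all EVs against all controls and 2 for any difference, among 80, 198, 184 and 312 of the 18417 genes. With only the groups compared, 1 was called for CD63 against MHC1 capture of JinB8, and the number over all genes is not given here. Array weights gave 6 for all EVs, 7 for Jurkat CD63+, 5 for Jurkat MHC1+, 5 for JinB8 CD63+ and 6 for JinB8 MHC1+ EVs against beads, 6 for beads against untreated and 9 for all EVs against all controls, among 8112, 4039, 10081, 3314, 9317, 13869 and 9054 called genes. They gave 1 and 5 for JinB8 against Jurkat with CD63 and MHC1 capture, 1 and 6 for CD63 against MHC1 capture of Jurkat and JinB8, 6 for the interaction and 9 for any difference, among 358, 10900, 6230, 6489, 9101 and 17584. The estimate of these weights did not reach its tolerance. Leaving out each of the 18 arrays gave counts of 0 to 0.

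The difference between all EVs and beads reversed for 6 genes. From the 18 arrays (CCL2 1.10, CXCL1 0.70, CXCL2 0.74, CXCL3 -0.35, CXCL8 0.67, IL6 0.45) it went, without both discordant controls or without IgG beads replicate 3, to -0.14 for CCL2, -0.12 for CXCL1, -0.27 for CXCL2, 0.049 for CXCL3, -0.32 for CXCL8 and -0.39 for IL6. With 15 arrays it was -0.13 for CCL2, -0.15 for CXCL1, -0.16 for CXCL2, -0.28 for CXCL8 and -0.37 for IL6. With array weights it was -0.062 for CCL2, -0.079 for CXCL1, -0.23 for CXCL2, -0.21 for CXCL8 and -0.39 for IL6. With the array SD as a covariate it was -0.081 for CCL2, -0.14 for CXCL1, -0.14 for CXCL2, -0.21 for CXCL8 and -0.31 for IL6. Over the 18 arrays left out in turn it ranged from -0.14 to 1.78 for CCL2, -0.12 to 1.17 for CXCL1, -0.27 to 1.28 for CXCL2, -0.61 to 0.049 for CXCL3, -0.32 to 1.24 for CXCL8 and -0.39 to 0.88 for IL6. The cause was not tested.

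Single probe sets and 3 arrays a group (2 in the controls of the 16) limit these results. Some genes, CXCL3, CXCL6, VCAM1, TLR2, TNIP3 and CCR2 among them, had levels near or below the array medians over all probe sets. CCL20 was below its array median in replicate 1 of the Jurkat MHC1+ EVs. These medians were 4.86 to 5.13 in the 16 arrays, and whether such genes were above background was not tested. Discordant arrays were set aside for their profile over all probe sets, with earlier results known. No paired analysis was possible because the labels give no replicate numbers.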
